A study of Mus musculus with 18 samples.

Results

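This account follows 8 genes that encode the enzymes of 4 consecutive reactions of the tricarboxylic acid (TCA) cycle, from 2-oxoglutarate to malate, in the kidneys of mice raised under low oxygen. They are Dlst, of the 2-oxoglutarate dehydrogenase complex, Sucla2, Suclg1 and Suclg2, of succinyl-CoA ligase, Sdha, Sdhb and Sdhd, of succinate dehydrogenase, and Fh1, fumarase. A probe belonged to a gene when its annotation gave that symbol and no other. The 8 genes had 14 such probes, of 9604 probes and 7117 genes with a single symbol in the whole series. Of the 14, 12 passed the filter on missing values, and each of the 8 genes kept at least 1 probe. Sdhc, the remaining subunit gene of succinate dehydrogenase, had no probe of its own: its 2 probes were annotated to another gene as well and were not used.

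The cycle runs in the mitochondrial matrix. The 2-oxoglutarate dehydrogenase complex makes succinyl-CoA, succinyl-CoA ligase turns it into succinate while making ATP or GTP, succinate dehydrogenase oxidises succinate to fumarate, and fumarase adds water to give malate. Succinate dehydrogenase is also complex II of the respiratory chain and hands its electrons to ubiquinone. The tubule cells of the kidney, above all those of the proximal tubule, are rich in mitochondria and depend on this chain. Succinate and fumarate inhibit the prolyl hydroxylases that mark hypoxia-inducible factor (HIF) for destruction, which is why these enzymes are often studied together with oxygen.

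The RNA came from kidneys of CD1 mice, an outbred stock, whose litters entered 1 of 3 conditions at postnatal day 2 and stayed there for 1, 2 or 4 weeks. In normoxia the animals breathed normal air, in constant hypoxia oxygen was held at 11%, and in intermittent hypoxia it alternated between 21% and 11% every 4 minutes. Each of the 18 cDNA arrays compared the kidneys of 1 male mouse, labelled with Cy5, with those of 1 female mouse, labelled with Cy3, both from the same condition and duration, and 2 arrays, A and B, were made for each of the 9 combinations. The value of a probe is therefore a log2 ratio between the 2 animals of an array. A change shared by both animals cancels in it, and no level or abundance can be read from it. A comparison of conditions subtracts signed ratios, so it can reflect the direction as well as the size of the inequality within pairs. No label says which channel was divided by which, so signs are those of the deposited values. Each array was centred so that the median over the 5751 features tested was 0. A feature is a gene, with its probes averaged, or a probe with no single symbol. In whole kidney, fewer cells of a type and less RNA per cell cannot be told apart.

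The constant hypoxia arrays stood apart in the deposited values: 81.8% to 88.8% of probes had a value there, against 41.0% to 67.9% in normoxia and 42.9% to 65.7% in intermittent hypoxia, and the array medians before centring lay between -1.13 and -0.18, against -0.15 to 0.10 in normoxia. What these arrays share in processing and the condition itself cannot be told apart. The array of constant hypoxia for 4 weeks, A, had the widest spread of ratios (SD 0.89), and the array of normoxia for 2 weeks, B, the lowest correlation with the mean of the others (r = 0.0975). Another label disagreed with the title on the arrays of intermittent hypoxia for 2 weeks, A, and constant hypoxia for 4 weeks, A. Eif2s3y, a gene of the Y chromosome, had a ratio above 1 on 3 arrays, below -1 on 4 and in between on 11, so the ratios did not run visibly one way from male to female. Of the marker lists, 2 of 9 proximal tubule genes, 2 of 8 erythroid, 2 of 5 immune, 2 of 5 podocyte, 2 of 5 endothelial, 1 of 5 distal tubule and 1 of 5 adrenal cortex genes were measured, and none for collecting duct, fat or muscle. As ratios, they cannot check the tissue.

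The promoters of all 8 genes were found in RefSeq (GRCm38.p6), as windows of 300 bases, 250 before the start of the gene and 50 after it. CCGGAAG, a core that ETS-family factors bind and a common element of promoters of respiratory genes, was present on either strand in 3 of the 8, against 8.86% of all 32851 windows. The stretches of all 3 genes with the core are shown, and any link of the core to the ratios was not tested. They read 5′ to 3′ on the strand of the gene, with the match in capitals (CTTCCGG is the same core on the opposite strand), from chr12:85110823-85110851 on the plus strand, chr4:140961266-140961294 on the plus strand and chr9:50603878-50603906 on the minus strand.
Dlst: ggccggtctcaCTTCCGGttgctgccggg
Sdhb: gctcggagaaaCCGGAAGcggccttccac
Sdhd: ccgtctcctgcCTTCCGGttcacgcttca
The core of the HIF binding site, ACGTG or GCGTG on either strand, occurred in 5 of the 8 windows (Suclg1, Sdha, Sdhb, Sdhd and Fh1), against 43.8% of all windows. For Sdha, the gene that passed a test, the 250 bases before its start (chr13:74350241-74350490, minus strand) are given with the 3 HIF cores in capitals, CACGC being GCGTG on the opposite strand.
Sdha: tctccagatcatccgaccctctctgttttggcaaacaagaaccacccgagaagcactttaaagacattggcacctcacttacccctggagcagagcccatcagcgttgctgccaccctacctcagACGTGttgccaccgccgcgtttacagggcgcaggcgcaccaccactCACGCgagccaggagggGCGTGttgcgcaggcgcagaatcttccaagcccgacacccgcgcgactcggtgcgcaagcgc
For Sdhd, the gene with the largest differences from normoxia when the durations were averaged, the same stretch (chr9:50603850-50604099, minus strand) is given with the ETS core in capitals. Its 2 GCGTG matches, both on the opposite strand, are left in lower case.
Sdhd: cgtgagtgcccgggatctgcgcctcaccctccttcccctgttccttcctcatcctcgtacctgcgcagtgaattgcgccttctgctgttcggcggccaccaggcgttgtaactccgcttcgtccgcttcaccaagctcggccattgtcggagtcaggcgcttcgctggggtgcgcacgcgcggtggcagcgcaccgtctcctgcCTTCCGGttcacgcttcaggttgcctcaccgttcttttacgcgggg
These matches describe letters in a window, not binding.

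**Figure D1:**
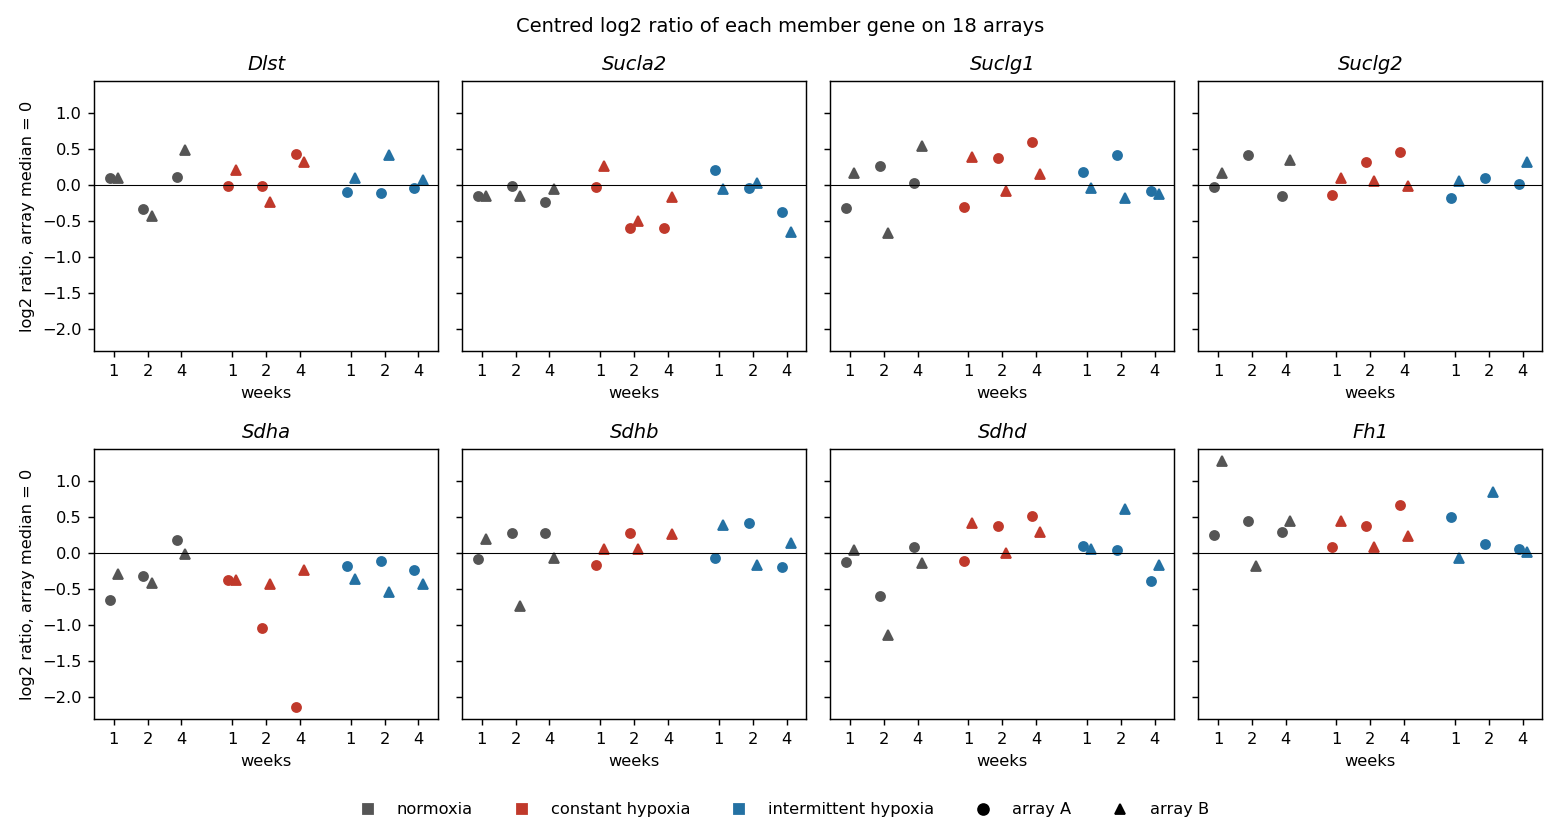
Centred log2 ratio (vertical axis, array median at 0) of each of the 8 genes on the 18 arrays, by condition (colour), weeks (horizontal axis) and array letter (circle A, triangle B). Sdha lies below 0 on 17 of 18 arrays and reaches -2.13, while Fh1 lies above 0 on 16 of 18.

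The first question was whether the mean ratio of any of these genes differed from 0 in a condition. For 1 it did: Sdha had a mean ratio below 0 in constant hypoxia, and no other of the 8 genes passed in any condition. As every male was labelled with Cy5 and every female with Cy3, a mean away from 0 cannot tell the animals from the dyes. The test was limma's moderated test with Benjamini-Hochberg adjustment over all 5751 features at 0.05. In constant hypoxia 1 of 8 genes passed, where 18.3% of all features did. An unadjusted p under 0.05 was reached there by 4 of the 8, against 35.7% of features. In normoxia 0 of 8 passed, against 3.53% of features. There 2 of the 8 had an unadjusted p under 0.05 (Sdhd and Fh1), against 21.7% of features. In intermittent hypoxia 0 of 8 passed, against 5.79% of features, and 0 had an unadjusted p under 0.05, against 24.6%. With 1 gene of 8 against nearly 1 feature in 5, the count in constant hypoxia is no result about the group.

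Dlst encodes the E2 component of the 2-oxoglutarate dehydrogenase complex, dihydrolipoamide succinyltransferase, which passes the succinyl group to coenzyme A. Its gene value lay near 0, from -0.23 to 0.43 over the 6 constant hypoxia arrays (mean 0.12), from -0.43 to 0.49 in normoxia (mean 0.0083) and from -0.11 to 0.42 in intermittent hypoxia (mean 0.060), and the conditions overlapped. That value averaged probes that went opposite ways. Probe 5071 was positive on 16 of 18 arrays, from -0.027 to 1.42 with a median of 0.44, and probe 8515 was negative on 16 of 18, from -0.85 to 0.12 with a median of -0.30. Fitted probe by probe, 5071 passed in constant hypoxia (0.43, SE 0.12, limma adjusted p = 0.0281, among 18.7% of 6518 probes) and in intermittent hypoxia (0.46, adjusted p = 0.0447, among 5.58% of probes). Probe 8515 passed in normoxia (-0.40, SE 0.089, adjusted p = 0.0304, among 3.61% of probes) and in intermittent hypoxia (-0.33, adjusted p = 0.0433). The probes differed in sign on 14 of 18 arrays, and over the arrays their ratios had an r of 0.23. A further probe, 14911, had values on 12 arrays only and was left out of the fit. It ranged from -2.05 to 0.66, and its median was -0.19.

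Succinyl-CoA ligase is a heterodimer of the alpha subunit, Suclg1, with either the ATP-forming beta subunit, Sucla2, or the GTP-forming one, Suclg2. Sucla2 was negative on 15 of 18 arrays, and its 6 constant hypoxia values were -0.029 and 0.26 at 1 week, -0.59 and -0.49 at 2 weeks and -0.59 and -0.17 at 4 weeks. Both arrays at 2 weeks were below all 6 normoxia arrays, which lay between -0.23 and -0.0043, while those at 1 week were not. The constant hypoxia mean was -0.27 (SE 0.089, limma adjusted p = 0.0509), just short of the threshold, and it turned to 0.13 when a trend along the probe number was removed from each array, as described below. Its probes 223 and 15859 did not move together (r = -0.21 over 17 arrays), and the probe that was left out of the fit, 10979, was negative on 15 of the 16 arrays that measured it.

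Suclg1 was positive on 10 of 18 arrays and Suclg2 on 11 of the 16 that measured it. Suclg1 ranged from -0.66 on the array of normoxia for 2 weeks, B, to 0.60 on constant hypoxia for 4 weeks, A, with condition means of 0.0087 in normoxia, 0.20 in constant and 0.034 in intermittent hypoxia. Suclg2 ranged from -0.18 to 0.46, and its condition means were 0.20, 0.14 and 0.070. Suclg2 had no value on the arrays of normoxia and intermittent hypoxia for 2 weeks, B, so that its 2-week groups hold 1 array in those conditions. Its probe 8589 was positive on 13 of 16 arrays and probe 4989 on 8 of 16 (r = 0.33 between them). The alpha subunit had an r of 0.59 with the GTP-forming partner (16 arrays) and of -0.0016 with the ATP-forming one (18 arrays). That contrast did not remain once the trend along the probe number was removed (r = 0.60 with each). The r with Suclg2 also depended on the probe. It was 0.70 for probe 8589 and 0.24 for probe 4989, and 0.81 and -0.083 with the trend removed.

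**Figure D2:**
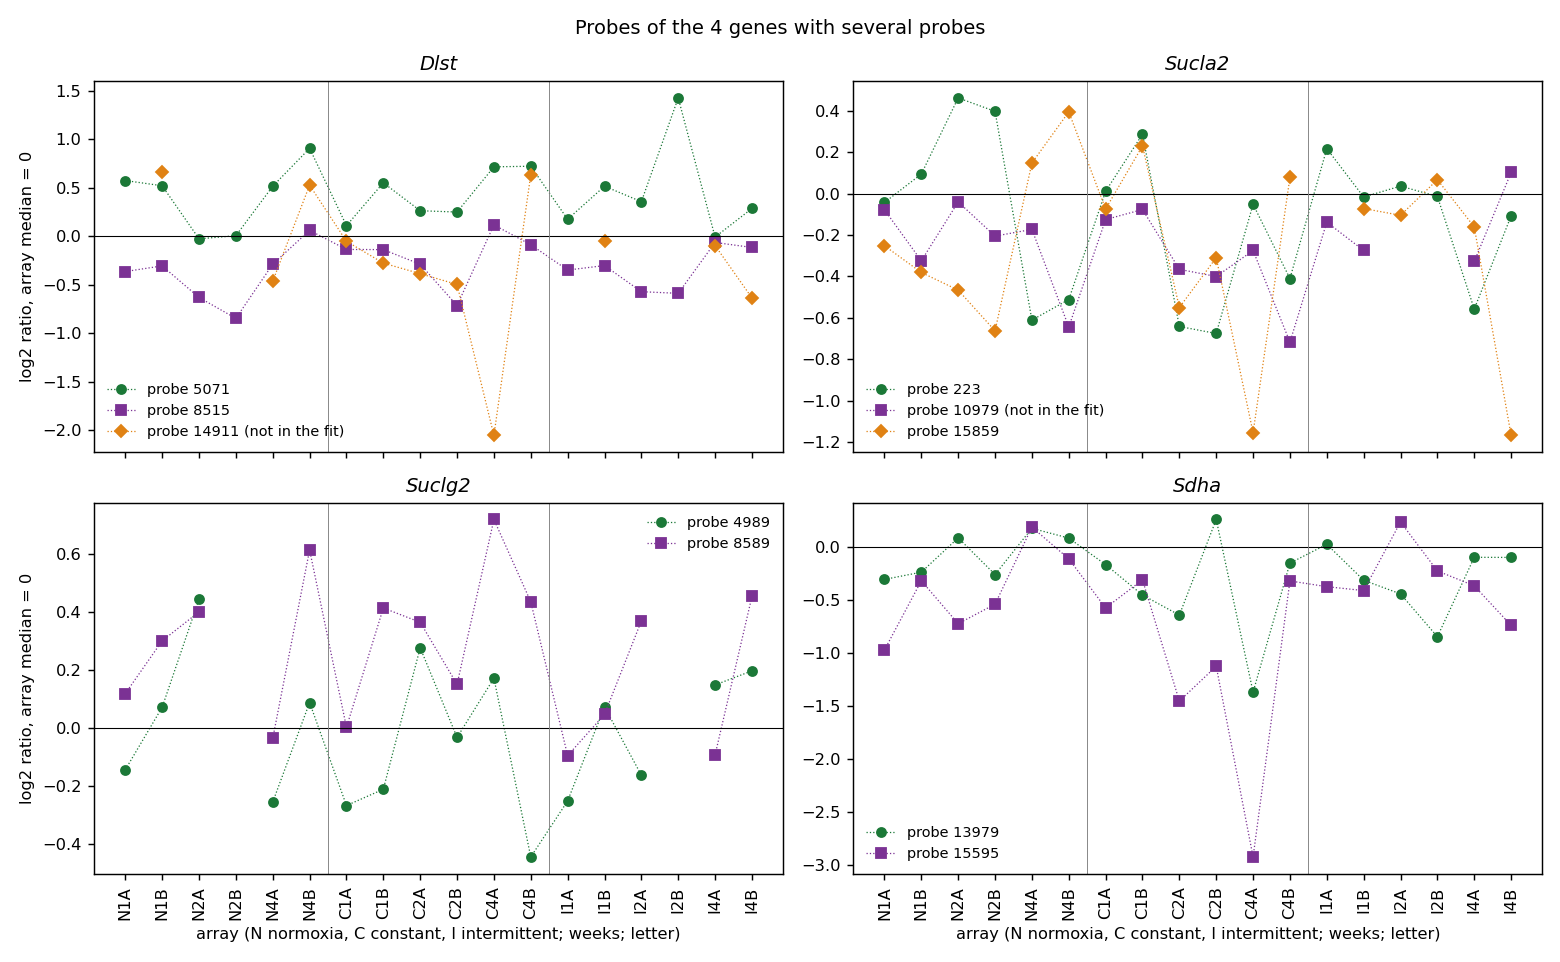
Centred log2 ratio (vertical axis) of each probe of Dlst, Sucla2, Suclg2 and Sdha on the 18 arrays (horizontal axis: N normoxia, C constant hypoxia, I intermittent hypoxia, then weeks and array letter). The kept Dlst probes lie on opposite sides of 0 on most arrays, and the Sdha probes read -1.37 and -2.93 on constant hypoxia for 4 weeks, A.

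Sdha encodes the flavoprotein subunit that carries the succinate-binding site. In normoxia its ratios were -0.64 and -0.28 at 1 week, -0.32 and -0.41 at 2 weeks and 0.19 and -0.0051 at 4 weeks. In constant hypoxia they were -0.37 and -0.38, then -1.04 and -0.43, then -2.13 and -0.23. In intermittent hypoxia they were -0.17 and -0.36, then -0.10 and -0.54, then -0.23 and -0.42. All 6 arrays of either hypoxia were negative, but only 2 of the constant hypoxia arrays, both lettered A, fell below the range of normoxia. The mean in constant hypoxia was -0.76 (SE 0.17, limma adjusted p = 0.013), against -0.25 (SE 0.17, adjusted p = 0.45) in normoxia and -0.31 (SE 0.17, adjusted p = 0.295) in intermittent hypoxia.

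The size of the Sdha value rested on 1 array. Without constant hypoxia for 4 weeks, A, the mean was -0.45, and without its partner B it was -1.08. Either fit left 1 array in that group, so the gap between -2.13 on A and -0.23 on B no longer entered the spread. The call was lost without constant hypoxia for 1 week, B (-0.76, adjusted p = 0.0718), and without constant hypoxia for 2 weeks, A (-0.66, adjusted p = 0.0772). Over its probes, 15595 passed alone in constant hypoxia (-1.12, SE 0.22, adjusted p = 0.00897) and 13979 did not (-0.42, SE 0.15, adjusted p = 0.058).

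Probes with high numbers were low on that array as a whole. Of the probes numbered 12097 and above, 1572 passed the filter, 86.6% of these were negative on constant hypoxia for 4 weeks, A, and their median there was -1.39, against 0.096 for the other probes and -0.13 for the same probes on array B. The running median of up to 200 probes on either side, which follows such a trend, was -1.11 at Sdha probe 13979, -2.17 at Sdha probe 15595, -2.13 at Sucla2 probe 15859 and -2.23 at Dlst probe 14911. The Sdha probes themselves read -1.37 and -2.93 there. With the running median subtracted on every array, the Sdha mean in constant hypoxia was -0.31 (SE 0.088, adjusted p = 0.0416) and still passed. On the same array the median of the measured erythroid markers, Hbb-b1 and Slc4a1, was -2.06, and Hsd3b1, of the adrenal cortex, was at -2.84. In constant hypoxia minus normoxia at 4 weeks, 1 erythroid gene was positive and 1 negative. Hsd3b1 varied elsewhere too, with -1.54 on array B, -1.99 on normoxia for 2 weeks, A, and 1.30 on constant hypoxia for 2 weeks, B. The other marker medians on array A were 0.27 (proximal tubule), 0.079 (podocyte), 0.078 (endothelial), -0.28 (distal tubule) and -0.18 (immune). The part of any marker in the Sdha value was not tested.

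**Figure D3:**
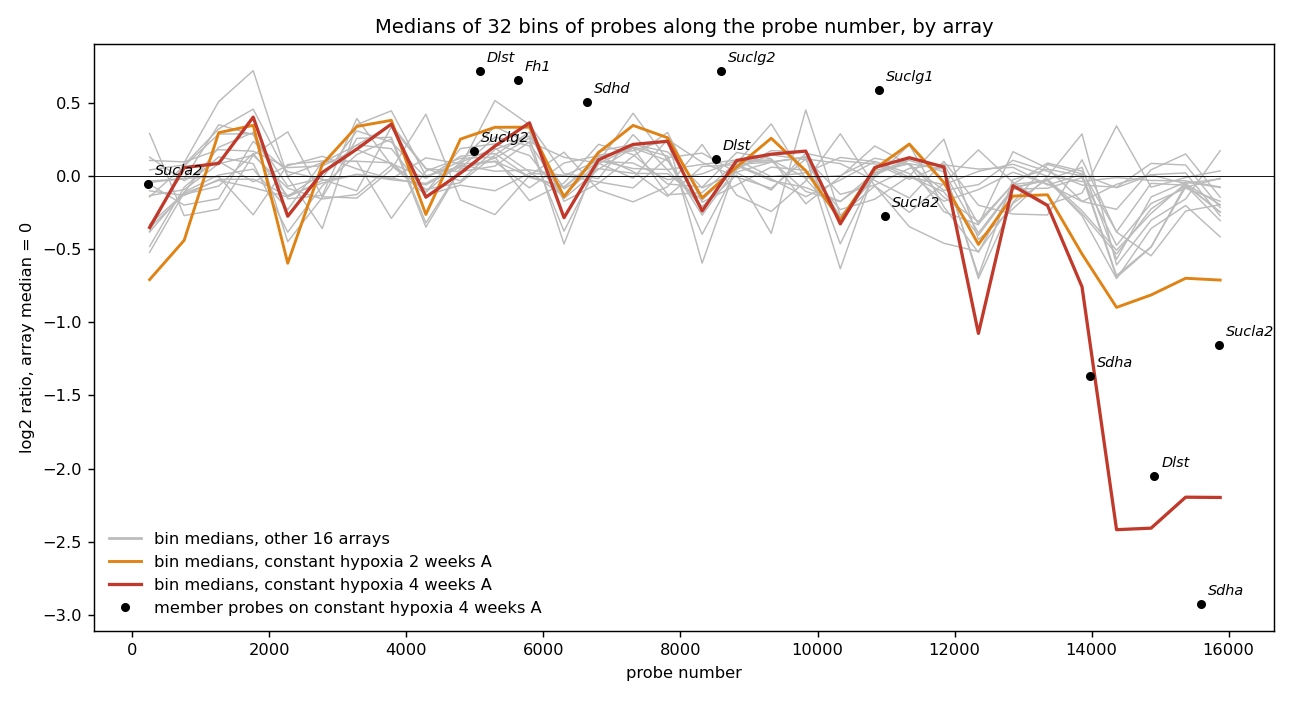
Medians of centred log2 ratios (vertical axis) in 32 bins of consecutive probe numbers (horizontal axis), 1 line per array. On constant hypoxia for 4 weeks, A, the bins reach -2.42 among the highest probe numbers, where the probes of Sdha and the last probes of Sucla2 and Dlst lie. Black points are the 13 member probes with a value on that array.

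Sdhb, the iron-sulfur subunit that passes electrons from the flavin to ubiquinone, was positive on 10 of 17 arrays and had no value on constant hypoxia for 4 weeks, A. It ranged from -0.73 to 0.28 in normoxia, from -0.17 to 0.28 in constant hypoxia and from -0.19 to 0.42 in intermittent hypoxia, and the 3 ranges overlapped. Its condition means were -0.021, 0.13 and 0.088.

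Sdhd, a membrane anchor subunit that helps to form the ubiquinone site, had the smallest p of the 8 in both differences from normoxia given below. In normoxia its ratios were -0.12 and 0.040 at 1 week, -0.59 and -1.14 at 2 weeks and 0.093 and -0.13 at 4 weeks. In constant hypoxia they were -0.10 and 0.42, then 0.37 and 0.0086, then 0.52 and 0.30. In intermittent hypoxia they were 0.097 and 0.062, then 0.046 and 0.62, then -0.39 and -0.17. The normoxia pair at 2 weeks was the lowest of all 18 arrays, below every hypoxia array, whereas the other 4 normoxia arrays lay among the hypoxia values.

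Fh1, the only fumarase gene, was positive on 16 of 18 arrays, from -0.17 to 1.28 in normoxia, from 0.083 to 0.67 in constant hypoxia and from -0.069 to 0.85 in intermittent hypoxia. The means were 0.42 (SE 0.14, limma adjusted p = 0.107), 0.32 (adjusted p = 0.128) and 0.25 (adjusted p = 0.307), so that the sign was shared by most arrays but no condition passed.

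The arrays of a pair differed by amounts that set the limit of every comparison below. The SD within groups, pooled over the 9 groups, was 0.16 for Sucla2, 0.18 for Dlst, 0.23 for Suclg2, 0.26 for Sdhd, 0.35 for Sdhb, 0.38 for Suclg1, 0.39 for Fh1 and 0.49 for Sdha, around a median of 0.29 over all features. The widest gap between arrays A and B was 1.90 for Sdha (constant hypoxia, 4 weeks), then 1.03 for Fh1 (normoxia, 1 week), 1.00 for Sdhb and 0.93 for Suclg1 (both normoxia, 2 weeks).

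The next question was whether the ratios differed between conditions, with the durations weighted equally. For constant hypoxia minus normoxia, 0 of the 8 genes passed by limma, as did 0% of all features (433 features and 1 of the 8 genes, Sdhd, had an unadjusted p under 0.05). Of the 8 differences, 4 were positive and 4 negative, with a median of 0.022 against -0.036 over all features. Sdhd had the smallest p among the members (0.56, SE 0.16, limma adjusted p = 0.647), and its difference lay between 0.47 and 0.65 with each array left out in turn. On the ratios as deposited, without centring, it was -0.21, where the median of all features moved from -0.036 to -0.81. It passed only without constant hypoxia for 4 weeks, B, where array A stood alone in its group. Sdha differed by -0.52 (SE 0.25, adjusted p = 0.647), by -0.20 without constant hypoxia for 4 weeks, A, and by -0.83 without B.

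Intermittent hypoxia minus normoxia uses the same 6 normoxia arrays, so the 2 comparisons are not independent. Again 0 of the 8 genes passed, against 0% of features (237 features and 1 of the 8 genes, Sdhd, had an unadjusted p under 0.05 in limma). Sdhd differed by 0.35 (SE 0.16, adjusted p = 0.995), Fh1 by -0.18, Suclg2 by -0.13, Sdhb by 0.11, and the other 4 genes by less than 0.1 in size, 95% intervals reaching 0.59 from 0 at the widest. Between intermittent and constant hypoxia 0 of 8 passed, against 0.0348% of features. Sdha had the largest of these differences (0.46, SE 0.25, adjusted p = 0.475).

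**Figure D4:**
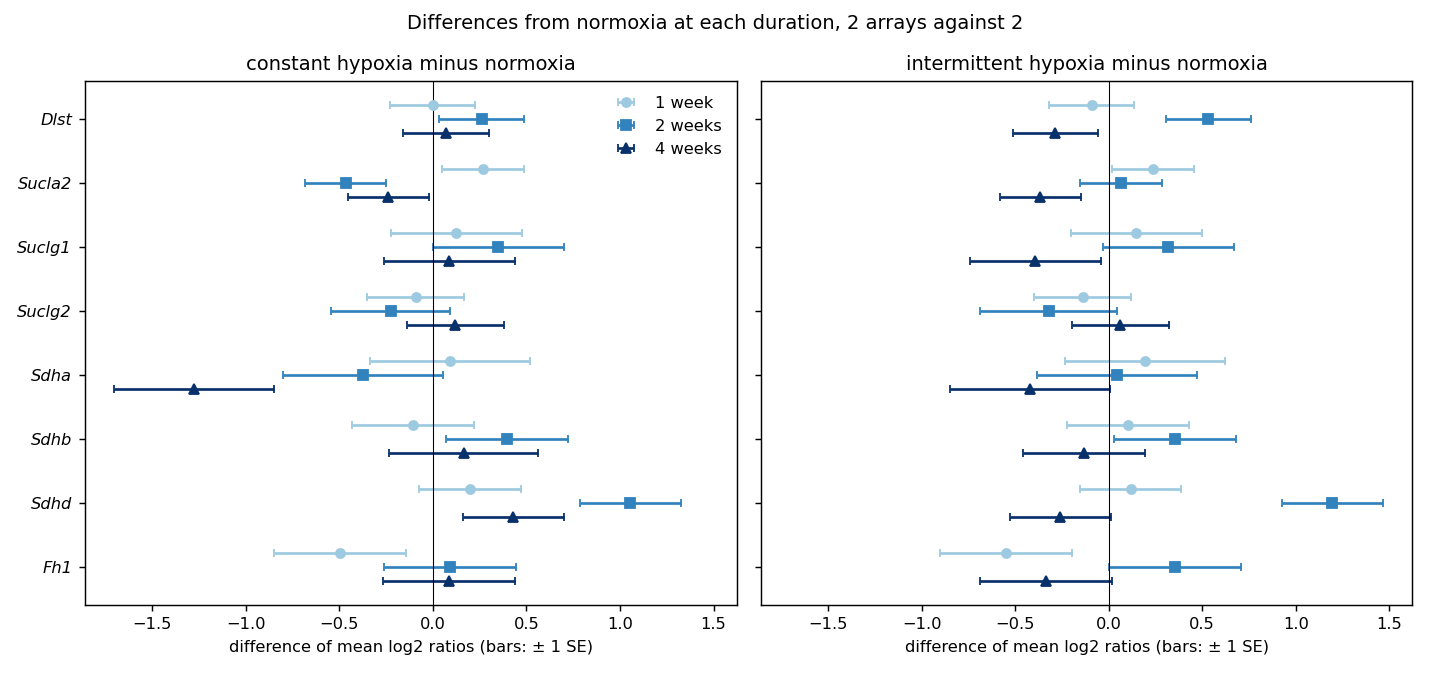
Difference of the mean log2 ratio from normoxia (horizontal axis) for each gene (vertical axis) after 1, 2 and 4 weeks of constant (left) or intermittent (right) hypoxia, 2 arrays against 2 where both had values. Bars are 1 SE from limma. Sdhd stands at 1.05 and 1.20 at 2 weeks, and Sdha at -1.27 after 4 weeks of constant hypoxia.

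Within durations, the differences of Sdhd at 2 weeks had the smallest p of any member, with the same low normoxia arrays on one side of both comparisons, and that of Sdha at 4 weeks of constant hypoxia was the largest in size. Constant hypoxia minus normoxia was 1.05 for Sdhd (SE 0.27, limma adjusted p = 0.202), and 0 of 8 genes passed against 0.0174% of features. Intermittent hypoxia minus normoxia was 1.20 (SE 0.27, limma adjusted p = 0.101), and 0 of 8 passed against 0.0869% of features. This second difference passed with the trend along the probe number removed (1.22, SE 0.25, adjusted p = 0.0277). It was 1.48 without intermittent hypoxia for 2 weeks, A, 0.91 without its array B and 0.92 without normoxia for 2 weeks, B. Dlst differed by 0.53 (SE 0.23, adjusted p = 0.348) in intermittent hypoxia at 2 weeks and by 0.26 (adjusted p = 0.768) in constant hypoxia.

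Groups of 2 arrays often failed to overlap, for any feature. At 2 weeks of constant hypoxia, Dlst and Sdhd lay above normoxia and Sucla2 and Sdha below without overlap, 4 of the 7 members with all 4 values, where 42.7% of features did not overlap. At 2 weeks of intermittent hypoxia, Dlst and Sdhd lay above, 2 of 7, against 32.5% of features. At 1 week, Sucla2 lay above normoxia in constant hypoxia (1 of 8, against 30.6%), and Sucla2 and Sdhd in intermittent hypoxia (2 of 8, against 34.9%). These shares are near the background.

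At 4 weeks both comparisons used the same normoxia arrays, and intermittent and constant hypoxia were not tested against each other at that age. In constant hypoxia Sdhd lay above and Sdha below normoxia without overlap, 2 of 7 members against 28.8% of features, and Sdha differed by -1.27 (SE 0.43, limma adjusted p = 0.715). That value was -0.33 without array A and -2.22 without array B of constant hypoxia for 4 weeks. With all arrays, 0 of 8 genes passed against 0.0348% of features. In intermittent hypoxia 7 of the 8 differences were negative, with a median of -0.31 against 0.0076 over all features. Dlst, Sucla2, Suclg1, Sdha, Sdhd and Fh1, 6 of 8, lay below normoxia without overlap, where 22.3% of features lay below and 48.5% did not overlap in either direction. None of the 8 passed, against 0% of features (limma, 502 features and 0 of the 8 genes at an unadjusted p under 0.05). The sizes ran from -0.42 for Sdha to 0.063 for Suclg2, each within 2 SE of 0, and the Sucla2 value of -0.36 turned to 0.22 when its probe 223 stood for the gene.

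The ratios can also be set against age, as 4 weeks minus 1 week within each condition. This change with age is one of the ratio between the 2 animals of an array. A change of expression with age shared by both animals cancels in it. None of the 8 genes passed in any of the 3, where 0% of features did; limma gave 491 features an unadjusted p under 0.05 in normoxia, 585 in constant and 153 in intermittent hypoxia, and for the members 0, 1 (Sucla2) and 1 (Sucla2). In normoxia 7 of 8 differences were positive, and the ratios of Dlst and Sdha were higher at 4 weeks without overlap (2 of 8, against 42.9% of features). In constant hypoxia Dlst was higher and Sucla2 lower (2 of 7, against 40.5%), Sucla2 by -0.49 (SE 0.22, adjusted p = 0.468). In intermittent hypoxia Sucla2, Suclg1 and Sdhd were lower (3 of 8, against 39%), Sucla2 by -0.59 (SE 0.22, adjusted p = 1). The test of whether the change with age differed from that in normoxia gave 0 of 8 genes in either hypoxia, against 0% of features (200 and 480 features and 1 and 0 of the 8 genes at an unadjusted p under 0.05), with the largest value for Sdha in constant hypoxia (-1.37, SE 0.60, limma adjusted p = 1).

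Over the arrays, some of the 8 genes varied in the same direction, and most negative pairs held Sdha or Sucla2. Of the 28 pairs, 17 had a positive Pearson r, with a median of 0.19 and a range from -0.52 to 0.72. Over all pairs of genes measured on every array, 49.9% were positive and the median was -0.0011. Each r is over 15 to 18 arrays that share labelling and print order, and is given as a description. Dlst and Sdhd were most alike (r = 0.72), followed by Suclg1 and Sdhb (r = 0.65), Suclg1 and Suclg2 (r = 0.59), Sdhd and Suclg1 (r = 0.53) and Sdhd and Sdhb (r = 0.52). With the other measured subunits of its own enzyme Sdha had an r of 0.10 (Sdhb) and -0.34 (Sdhd), and its r with Suclg2, -0.52, was the lowest of the 28. With the trend along the probe number removed, 26 of the 28 were positive, with a median of 0.29, against 50.1% of all pairs. Sdha then had an r of 0.31 with Sdhb and 0.036 with Sdhd, and Dlst and Sdhd kept an r of 0.73. The Sdha probes, which had an r of 0.58 with each other, then had one of -0.028, and the r of 0.71 between Sdha probe 15595 and Sucla2 probe 15859 became 0.17.

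**Figure D5:**
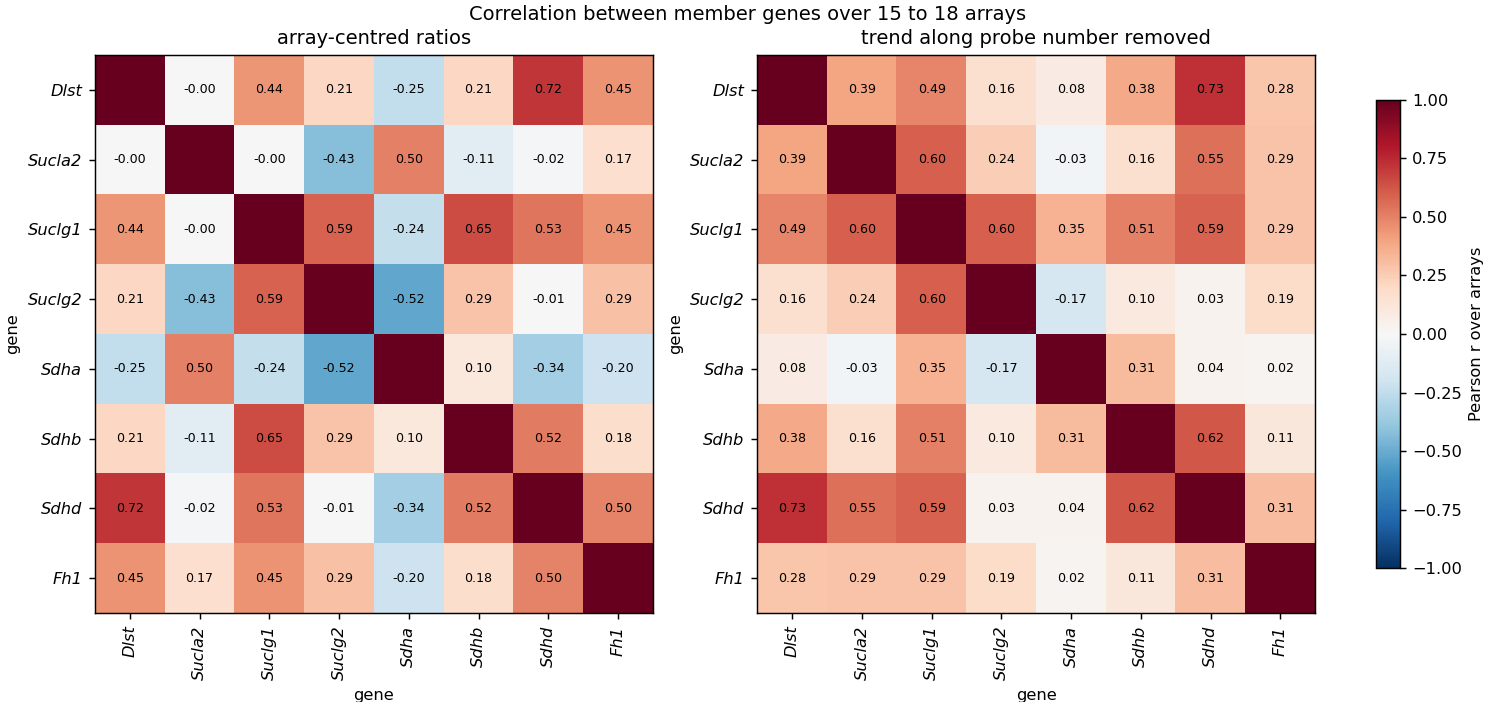
Pearson r between the ratios of each 2 of the 8 genes over 15 to 18 arrays, with array-centred ratios (left) and after removing the trend along the probe number (right). Red is positive and blue negative. The row of Sdha is mostly blue on the left and runs from -0.17 to 0.35 on the right, and Dlst with Sdhd is at 0.72 and 0.73.

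The genes most like each member were sought among all measured genes by Pearson r of the centred ratios over at least 15 shared arrays. The Sdhd pattern was closest to Wdr43 (r = 0.93, and 0.90 with the trend removed) and Morf4l2 (0.91 and 0.92), and the Dlst pattern to Ahcy (0.89 and 0.87) and Tpp1 (0.89 and 0.86). Suclg1 was closest to Grpel1 (0.89 and 0.81) and Mrpl3 (0.86 and 0.67), Suclg2 to Timm50 (0.89 and 0.85) and Mta2 (0.80 and 0.52), and Fh1 to Snu13 (0.85 and 0.81) and Npm1 (0.84 and 0.67). The matches of Sdha, Smu1 (0.94) and Pithd1 (0.93), had probes 154 and 157 numbers from one of its own and dropped to 0.53 and 0.52 with the trend removed. Tpp1 was as near to Dlst (128 numbers), Snu13 lay 196 from Fh1 and Timm50 239 from Suclg2, whereas Wdr43 lay 4018 from Sdhd. All these genes were picked for their r among 4109 gene features, so high values were to be found. Sdhb was closest to Idh3g (0.83 and 0.41), a subunit gene of the isocitrate dehydrogenase of the same cycle, and to Abhd17a (0.83 and 0.60). Sucla2 was closest to Anapc7 (0.76 and 0.72) and D10Wsu102e (0.69 and -0.087).

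The rest of the cycle was read from 18 further genes of the TCA cycle and pyruvate dehydrogenase, of which 12 were measured. One, Cs, citrate synthase, passed in constant hypoxia (mean ratio 0.51, SE 0.13, limma adjusted p = 0.0222), though not with the trend removed (0.29, adjusted p = 0.14), and none in a difference between conditions. For constant hypoxia minus normoxia 10 of 12 were positive, with a median of 0.21 against -0.036 over all features, and the smallest p belonged to Pdhb, of pyruvate dehydrogenase (0.42, adjusted p = 0.647), and Idh3b, of isocitrate dehydrogenase (0.42, adjusted p = 0.653). For intermittent hypoxia minus normoxia 8 of 12 were positive (median 0.048), with the smallest p for Idh3b (0.48) and Cs (-0.48), both with an adjusted p of 0.995. At 4 weeks of intermittent hypoxia 9 of 12 were negative, with a median of -0.34, beside the -0.31 of the 8 members. The 2 sets parted elsewhere. At 1 week of constant hypoxia all 12 were positive (median 0.33), while the members split into 4 positive and 4 negative (median 0.046). At its 4 weeks 5 of the 12 were positive and 7 negative, against 6 and 2 of the members. At 2 weeks both medians were positive, 0.096 and 0.18 in constant and 0.15 and 0.34 in intermittent hypoxia.

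Of 31 other genes that make or use succinate, succinyl-CoA or fumarate, 7 were measured, and 4 passed below 0 in constant hypoxia, where 13.2% of all features passed below 0. Sdhaf2, the factor that helps attach the flavin to Sdha, had a mean ratio of -0.65 (SE 0.14, limma adjusted p = 0.0113) and was still at -0.48 (adjusted p = 0.0314) with the trend removed. Etfdh (-0.72), which brings electrons from fatty acid oxidation to ubiquinone, Oxct1 (-0.72), which uses succinyl-CoA to break down ketone bodies, and Alas1 (-0.87), which uses it for haem, passed as well (adjusted p of 0.0211, 0.0274 and 0.0409). Each of these 3 has a probe numbered above 12097, and with the trend removed they stood at 0.11, -0.22 and -0.22 and did not pass. In constant hypoxia minus normoxia 6 of the 7 were negative and in intermittent hypoxia minus normoxia 6 were positive, and none passed in either. At 4 weeks of intermittent hypoxia, where most genes of the cycle were negative, 4 of the 7 were positive and 3 negative, with a median of 0.070.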

How the data were processed

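A table of log2 ratios deposited by the authors, with 16128 probes in rows and the 18 arrays in columns, was the only source of values. Per the labels' protocols, total RNA was labelled by direct incorporation of Cy5 (male) or Cy3 (female). No label or header used here states the background correction, spot filter or normalization, the brightness behind a ratio is unknown, and precision is limited by how few arrays there are. The platform annotation gave 9604 probes 1 symbol, 213 several and 6311 none. Probes with a value on at least 15 of 18 arrays and on at least 1 array per group were kept (6518), probes of a symbol averaged, and each array centred on its median. The model held 1 mean for each of the 9 groups (limma 3.58.1 under R 4.3.3, with lmFit, contrasts.fit and eBayes), with Benjamini-Hochberg adjustment over 5751 features at 0.05, two-sided; the script was tested on simulated data. All 8 members are named; other listed genes are named if they passed or had one of the 2 smallest p in a hypoxia minus normoxia difference, and so are the 2 genes most like each member. The members and lists were chosen with earlier results of these data known. The labels call the arrays of a group separate pairs of animals. Alternatives were no centring, removal of a running median along the probe number, other filters and probe choices, the letter as a block, robust moderation and left-out arrays.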

Additional observations from a re-analysis of the deposited data

Results flagged for a closer look

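On 3 occasions 1 array lay far from the other 5 of its condition, relative to their whole range: Sdhb on normoxia for 2 weeks, B, at -0.73, Dlst probe 5071 on intermittent hypoxia for 2 weeks, B, at 1.42, and Sucla2 probe 15859 on intermittent hypoxia for 4 weeks, B, at -1.17. Over 24 sets of a gene and a condition and 36 of a probe and a condition, chance flags about 1 in 20.

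In 5 cases both arrays of a hypoxia group lay above normoxia at one duration and below it at another. How many of all features turn in this way was not counted. In a single comparison of a hypoxia with normoxia at one duration, 28.8% to 48.5% of features did not overlap, so such turns are no result about the members. For Sdhd, intermittent hypoxia minus normoxia was lower at 4 weeks than at 2 weeks by -1.45 (SE 0.38, limma adjusted p = 0.181) and lower than at 1 week by -0.38 (adjusted p = 0.85). For Dlst the step from 2 to 4 weeks in the same comparison was -0.82 (SE 0.32, limma adjusted p = 0.321). For Sucla2 it was -0.60 from 1 to 4 weeks (limma adjusted p = 0.624), and in constant hypoxia minus normoxia -0.74 from 1 to 2 weeks (adjusted p = 0.991). None of the 5 passed, nor did any feature (0 of all tested). The 64 pairs checked also held pairs that set the direction of the 4 weeks minus 1 week change in a hypoxia against normoxia.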

How the results depend on the processing

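Apart from single left-out arrays, the alternatives turned the sign of 19 member values, and the Sdha call in constant hypoxia was lost in 1 of them, with probe 13979 standing for the gene (-0.42, adjusted p = 0.0582). Without centring, the constant hypoxia median of all features was -0.79, 8 of 8 members and 5687 features passed there, all negative (the centred calls were 288 positive and 762 negative), and so did 7 members and 5570 features in constant hypoxia minus normoxia, 8 and 5386 in intermittent minus constant hypoxia, 7 and 4466 at 1 week and 7 and 5247 at 4 weeks of constant hypoxia; 2 features passed at 2 weeks of intermittent hypoxia (5 when centred) and 1 in the change with age in constant hypoxia. Constant hypoxia minus normoxia then changed sign for Dlst (-0.66), Suclg1 (-0.58), Sdhb (-0.59) and Sdhd (-0.21), and intermittent hypoxia minus normoxia for Suclg1 (-0.0015) and, at 4 weeks, Suclg2 (-0.032).

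With the trend along the probe number removed, 499 features passed in normoxia (203 before), 448 in constant (1050) and 813 in intermittent hypoxia (333), 5 in intermittent minus constant hypoxia (2), 4 at 2 weeks of constant hypoxia (1), 0 at 4 weeks (2), 1 at 1 week of intermittent hypoxia (0), 91 at 2 weeks (5), with 1 member, Sdhd, and 4 in the change with age in normoxia (0). Sucla2 turned to 0.13 in constant hypoxia and 0.16 in constant hypoxia minus normoxia, and Suclg2 to -0.0086 at 4 weeks of intermittent hypoxia. With values on all 18 arrays required, 71, 614 and 105 of 2812 features passed in normoxia, constant and intermittent hypoxia, 0 in intermittent minus constant hypoxia, 0 at 2 and 4 weeks of constant hypoxia and 0 at 2 weeks of intermittent hypoxia. Sucla2, then read from probe 223, stood at 0.24 at 4 weeks of intermittent hypoxia, and at 0.22 with 1 probe per gene. The choice of 1 probe per gene also called 1 member, Dlst, in intermittent hypoxia, where 312 of 5751 features passed. With 1 array per group required, 2 members passed in constant hypoxia, Sdha and Sucla2, where 1092 of 6076 features did. In that setting 1 feature each passed in constant hypoxia minus normoxia and at its 1 week.

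The letters did not pair arrays: over 36 pairs of groups the differences between A and B correlated from -0.37 to 0.44, 8 of them above 0.1. With the letter as a replicate block, 0 features passed in intermittent minus constant hypoxia and at 2 weeks of constant hypoxia, 1 at its 4 weeks and 2 at 2 weeks of intermittent hypoxia, and no member call changed. Robust moderation gave 3 there.

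Without the 2 arrays whose labels disagree, 1 member passed in normoxia (Fh1), 1 in intermittent hypoxia (Sdha) and 2 at 2 weeks of intermittent hypoxia (Dlst and Sdhd). Features passed as follows: 725 in normoxia, 683 in constant and 1180 in intermittent hypoxia, 30 at 2 weeks and 0 at 4 weeks of constant hypoxia, 777 at 2 weeks and 1 at 1 week of intermittent hypoxia, 7 in the change with age in normoxia, and 1 each in constant hypoxia minus normoxia, intermittent minus constant hypoxia and the change with age in intermittent hypoxia against normoxia. Suclg1 turned to -0.073 in intermittent hypoxia minus normoxia.

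The next exclusions were chosen after seeing the data. Without the 4 arrays with Eif2s3y below -1, features passed in 113 cases in normoxia, 0 in intermittent hypoxia, 0 in intermittent minus constant hypoxia, 0 at 2 weeks of either hypoxia, 1 at 4 weeks of constant hypoxia and 1 in the change with age in normoxia. In intermittent hypoxia minus normoxia Dlst turned to -0.0075 and Sdha to 0.025, and Suclg2 at 4 weeks to -0.085. Without constant hypoxia for 4 weeks, A, and normoxia for 2 weeks, B, features passed in 408 cases in normoxia, 576 in constant and 734 in intermittent hypoxia, 0 at 2 and 4 weeks of constant hypoxia, 3 at 2 weeks of intermittent hypoxia and 5 in the change with age in normoxia. Suclg1 then turned to -0.042 and Sdhb to -0.015 in constant hypoxia minus normoxia, and Suclg1 to -0.13 and Sdhb to -0.058 in intermittent hypoxia minus normoxia.

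With each array left out in turn, the members passing numbered 0 to 2 in constant hypoxia, in constant hypoxia minus normoxia and at 2 weeks of intermittent hypoxia, and 0 to 1 in intermittent minus constant hypoxia, at 4 weeks of constant hypoxia and in its change with age, alone or against normoxia. The 2 at 2 weeks of intermittent hypoxia (Dlst and Sdhd) came without its array A. The highest counts in the other comparisons came without constant hypoxia for 4 weeks, B, and those of constant hypoxia itself also without either array of intermittent hypoxia for 2 weeks. The Sdha call in constant hypoxia was lost without its 1 week array B or its 2 week array A. Features ranged from 13 to 453 in normoxia, 6 to 1365 in constant and 43 to 899 in intermittent hypoxia, 0 to 567 in constant hypoxia minus normoxia, 0 to 672 in intermittent minus constant hypoxia, 0 to 10 at 2 weeks and 0 to 658 at 4 weeks of constant hypoxia, 0 to 608 at 2 weeks of intermittent hypoxia, 0 to 752 in the change with age in constant hypoxia and 0 to 503 in its difference from normoxia, and 0 to 1 in the other 6 comparisons whose count moved. Differences that changed sign ranged from -0.036 to 0.14 (Dlst), -0.067 to 0.026 (Sucla2), -0.13 to 0.18 (Suclg1), -0.13 to 0.011 (Sdha) and -0.058 to 0.28 (Sdhb) in intermittent hypoxia minus normoxia, from -0.19 to 0.31 (Suclg2) and -0.31 to 0.040 (Sdhb) at its 4 weeks, and from -0.15 to 0.017 (Suclg2), -0.015 to 0.32 (Sdhb) and -0.28 to 0.066 (Fh1) in constant hypoxia minus normoxia. The cause of these changes was not tested. Only ratios were used, so signal over background, and with it the reach of any single probe, is unknown here.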
